A study of Mus musculus with 3 samples.

Results

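The T-box genes Tbx1, Tbx2, Tbx3, Tbx4, Tbx5, Tbx18 and Tbx20 were examined in RNA-seq libraries made from whole heart tubes of mouse embryos at day 9.5. They were taken by symbol, 7 of the 23337 genes in the count tables, as the T-box genes of the cardiac chambers, the non-chamber myocardium, the sinus venosus and the outflow tract, with Tbx4 as the neighbour of Tbx2. The Sox7-null group held 2 libraries, labelled (-/-) for Sox7, a SoxF transcription factor gene of endothelium and endocardium, and the wild-type group held 1 library of the same tissue and stage. The strain and the way the null allele was made are not stated in the labels, nor is it said whether a tube of RNA came from a single embryo or from several. The p-values set each difference from the wild type against a spread seen only between the 2 null libraries and pooled over genes. Because the labels do not describe the embryos behind each tube, it is not known how far that spread covers variation between embryos. The study asked which transcripts of the developing heart differ when SOX7 is lacking.

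T-box factors bind DNA through the T domain that gives the family its name, and several of them compete for the same short sites. Tbx5 and Tbx20 act with Nkx2-5 and Gata4 to switch on chamber genes such as the natriuretic peptide gene Nppa. Tbx2 and Tbx3 occupy such sites as repressors and keep the atrioventricular canal and outflow myocardium from taking on a chamber character, while Tbx20 holds Tbx2 out of the chambers. Tbx18 marks the sinus venosus and the proepicardium, Tbx1 the pharyngeal progenitors of the outflow tract, and Tbx4 the hindlimb, the allantois and the lung mesenchyme.

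The null libraries held 13139823 and 13618338 reads assigned to genes, and the wild-type library held 13789388. Sox7 had 2 and 7 reads in the null libraries, against 222 in the wild type. For the labelled tissue, 10 myocardial genes summed to 32161 and 31152 CPM (the TMM-scaled read count used as the level below) in the null libraries and 24970 CPM in the wild type, whereas 5 of 10 retina markers were at 0 reads in all 3. The 10 retina markers summed to 76.9 and 55.9 CPM in null tubes, against 47.4 CPM in the wild-type tube, most of it Mitf (992 and 751 reads against 538), and Pax6, Otx2, Lhx2 and Rax had at most 58 reads in a library. Reads that aligned to several places made up 10.4% and 11.6% of the null files and 22.3% of the wild-type file, a difference that cannot be told apart from genotype here. Over all 13334 genes tested by edgeR, 11.3% were called higher and 10.2% lower in the null tubes at an adjusted p under 0.05.

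Tbx20 was the T-box gene with the most reads and the one member that passed the test. It rose in the Sox7-null tubes by a log2 fold change of 0.53 ± 0.16 (SE), a 1.45-fold higher level. Tbx5 lay 1.49-fold higher and Tbx3 at 0.662 of the wild-type level, and neither passed. Tbx2 and Tbx18 had log2 fold changes between -0.16 and -0.12. Tbx1 held few reads and Tbx4 next to none. Of the 6 members tested, 1 was thus called higher, 0 were called lower and 5 did not pass, a share of calls to be read against the 11.3% and 10.2% of all genes given above. At an unadjusted p under 0.05, edgeR gave 2 higher (Tbx20 and Tbx5) and 1 lower (Tbx3), and DESeq2 gave 2 higher and 0 lower. Over all 13334 genes the same threshold took in 18.3% higher and 17% lower with edgeR, and 12% and 10.8% with DESeq2. Tbx1 entered the test through its 10 reads in Sox7-null 2 and Tbx4 did not enter it. The median log2 fold change was 0.21 over the 6 members tested and -0.12 over the 5 that averaged 5 CPM or more, beside 0.014 over all tested genes.

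**Figure D1:**
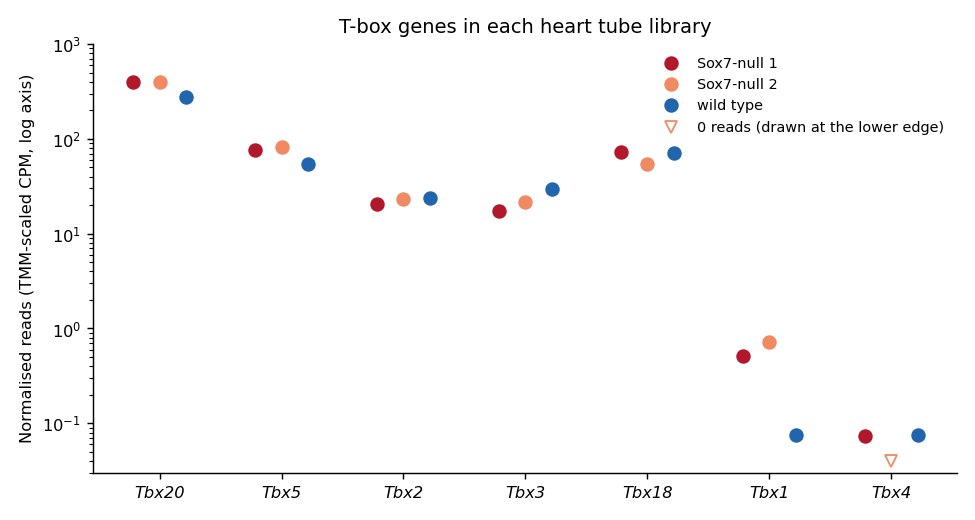
Normalised reads (TMM-scaled CPM, log axis) of the 7 T-box genes, 1 point a library, null libraries to the left of the wild type within each gene. Tbx20 stands at 398 and 400 CPM in null tubes and 276 CPM in the wild-type tube, while Tbx1 and Tbx4 lie below 1 CPM, and the open triangle marks Tbx4 at 0 reads in Sox7-null 2.

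Among the chamber factors, Tbx20, which is needed for chamber growth and for keeping Tbx2 out of the chambers, had 5370 and 5519 reads in the null libraries, against 3657 in the wild type. On the CPM scale this was 398 and 400, against 276. The null libraries lay close together (399 ± 1.5 CPM, SD, n = 2) and both stood above the wild type. Of all tested genes, 43.1% had both null libraries above the wild type and 43% had both below it. The 95% interval of the log2 fold change ran from 0.18 to 0.89 (edgeR adjusted p = 0.0343). The call ended with DESeq2 (adjusted p = 0.0646), without a filter on low counts (edgeR adjusted p = 0.136) and after correction for a trend on exon length and GC content (edgeR adjusted p = 0.121), which gave 0.40.

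Tbx5, the activator of left ventricular, atrial and sinus venosus genes whose loss in humans causes Holt-Oram syndrome, had 1036 and 1139 reads in Sox7-null tubes, against 712 in the wild-type tube. The levels were 76.9 and 82.7 CPM in null tubes and 53.7 CPM in the wild-type tube, so both null libraries again lay above it. The log2 fold change of 0.57 ± 0.20 (SE; 95% interval 0.14 to 1.00) was slightly larger than that of Tbx20. It did not pass (edgeR adjusted p = 0.0588), and passed narrowly with upper-quartile scaling (edgeR adjusted p = 0.0489). Without a filter on low counts it was further from passing (edgeR adjusted p = 0.153). With DESeq2 and after the length and GC correction it did not pass either. That correction left 1 member higher at an unadjusted edgeR p under 0.05. Tbx20 and Tbx5 had nearly the same ratio to each other in each library. There were 5.18 and 4.85 reads of Tbx20 per read of Tbx5 in the null libraries (95% exact intervals 4.85 to 5.55 and 4.55 to 5.17) and 5.14 in the wild type (4.74 to 5.57). These intervals, like those below, cover counting error only.

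Of the non-chamber repressors, Tbx3, which shapes the conduction system, had 235 and 300 reads in null tubes and 393 in the wild-type tube. Its levels were 17.4 and 21.8 CPM in the null libraries, both below the 29.6 CPM of the wild type. The log2 fold change of -0.60 ± 0.23 (SE; 95% interval -1.09 to -0.10) did not pass (edgeR adjusted p = 0.0804). After the length and GC correction it was -0.99 and passed (edgeR adjusted p = 0.000232). Tbx2, the repressor of the atrioventricular canal, differed less, with 279 and 321 reads in null tubes and 316 in the wild-type tube, or 20.7 and 23.3 CPM against 23.8 CPM. Its log2 fold change was -0.12 ± 0.22 (SE; 95% interval -0.60 to 0.37; edgeR adjusted p = 0.753), an interval that takes in both a fall and a rise. That correction gave -0.48, which did not pass either (edgeR adjusted p = 0.118). The longest annotated transcripts of Tbx2 and Tbx3 had a GC content of 63.2% and 54.2%, against 51.3% and 42.3% for Tbx5 and Tbx20, and the part of base composition in these differences was not tested beyond that correction.

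**Figure D2:**
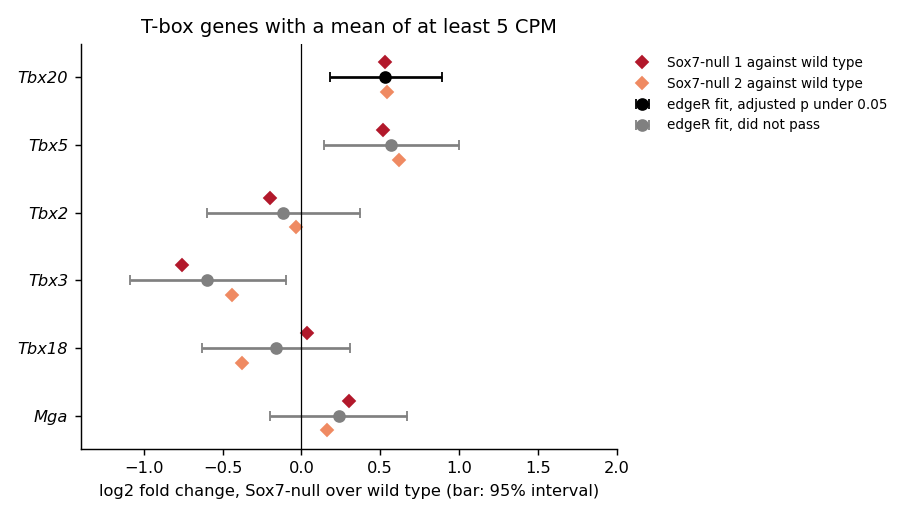
Log2 fold change of Sox7-null over wild type for the 5 members that averaged 5 CPM or more and for Mga, another T-box gene (circles: edgeR estimate with 95% interval, black where the adjusted p was under 0.05). Diamonds give each null library alone against the wild type: both lie above 0 for Tbx20 and Tbx5, both below 0 for Tbx3, and on either side of 0 for Tbx18.

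Because a ratio of 2 genes within a library does not depend on how the libraries are scaled, the chamber and non-chamber genes were also set against each other directly. Tbx5 gave 4.41 and 3.8 reads per read of Tbx3 in the Sox7-null libraries (95% exact intervals 3.82 to 5.1 and 3.34 to 4.33), against 1.81 in the wild type (1.6 to 2.05). Tbx20 gave 22.9 and 18.4 reads per read of Tbx3 in the null libraries, against 9.31 in the wild type. Per read of Tbx2 the Tbx20 values were 19.2 and 17.2 in null tubes and 11.6 in the wild-type tube. In these comparisons each null library lay above the wild type. The share of other gene pairs that do so was not counted. The intervals cover counting error only, and over all genes the libraries differed by more than that. Chi-square per degree of freedom was 117 and 70.6 for the null libraries against the wild type and 19.6 between the null libraries. Tbx2 per read of Tbx3 stood at 1.19 and 1.07 in null tubes and at 0.804 in the wild-type tube. Its intervals were 0.994 to 1.42 and 0.911 to 1.26 against 0.691 to 0.935. With 1 wild-type library these ratios describe 3 libraries and were not tested.

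**Figure D3:**
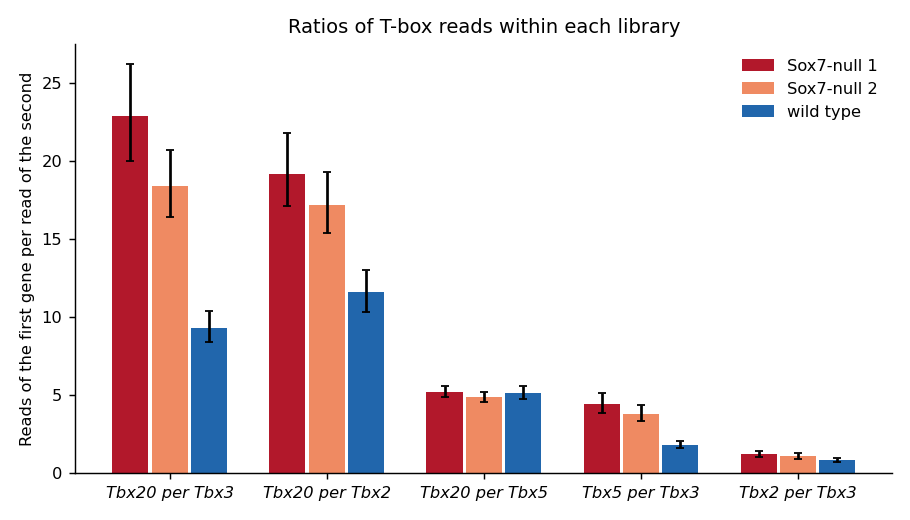
Reads of 1 T-box gene per read of another within each library (bars from 0; error bars are 95% exact binomial intervals for counting error only), with both null libraries to the left of the wild type. Tbx20 per Tbx3, Tbx20 per Tbx2 and Tbx5 per Tbx3 are higher in both null libraries than in the wild type, whereas Tbx20 per Tbx5 lies between 4.85 and 5.18 in all 3.

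As shares of all reads on the 7 genes, Tbx20 held 67.9% and 68.7% in the null libraries (95% exact binomial intervals 66.9% to 68.9% and 67.6% to 69.7%) and 60.7% in the wild type (59.5% to 62.0%). Tbx3 held 2.97% and 3.73% in the null libraries, against 6.53% in the wild type (5.92% to 7.18%). Tbx5 made up 13.1% and 14.2% in null tubes and 11.8% in the wild-type tube. Summed over the 7 genes the level was 587 and 583 CPM in null tubes and 454 CPM in the wild-type tube, most of it Tbx20.

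Tbx18, a repressor of the sinus horns and the epicardium, had no common direction. It had 980 and 748 reads in null tubes and 940 in the wild-type tube, or 72.7 and 54.3 CPM against 70.9 CPM, so the wild type lay between the null libraries. The log2 fold change was -0.16 ± 0.22 (SE; 95% interval -0.63 to 0.31; edgeR adjusted p = 0.643). Taken alone, Sox7-null 1 gave 0.035 and Sox7-null 2 gave -0.38. The epicardial and proepicardial markers differed between the null libraries in the same order: 8 of them summed to 244 CPM in the first and 136 CPM in the second, and to 136 CPM in the wild type, and their part in the Tbx18 values was not tested. In the current annotation 20.6% of the Tbx18 exon length overlaps a gene on the opposite strand, D030062O11Rik, for which the files have no row. The strand setting of the counting is not stated, so the 2 genes' reads cannot be told apart in the shared part. For Tbx3 the same holds for 1.74% of its exon length, shared with Tbx3os1.

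Tbx1, the pharyngeal gene lost in 22q11 deletion syndrome in humans, had 7 and 10 reads in null tubes and 1 in the wild-type tube. That is 8.27-fold higher on summed reads, with a 95% exact interval of 1.30 to 346, and it did not pass (edgeR adjusted p = 0.168). Markers of the pharyngeal endoderm, a tissue that also makes Tbx1, were near 0 throughout: 9 genes summed to 0.742 and 2.61 CPM in null tubes and 6.56 CPM in the wild-type tube, with Pax1 and Gcm2 at 0 reads in all 3. Tbx4 had 1 and 0 reads in null tubes and 1 in the wild-type tube, and was too low to be tested or for a fold to be given. At this depth any difference in Tbx4 was not detectable. The limb marker Pitx1 was as scarce, with 2 and 0 reads against 5.

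Levels between genes were compared per kilobase of annotated exon, which may include exons that the heart does not use. In every library Tbx20 came first, with 33.2 and 33.4 CPM per kb in null tubes and 23 in the wild type. Tbx5 (16.4 and 17.7 against 11.5) and Tbx18 (15.4 and 11.5 against 15) followed, and these neighbours changed places, with Tbx5 above Tbx18 in both null libraries and below it in the wild type. Tbx2 (5.71 and 6.42 against 6.57) lay above Tbx3 (2.63 and 3.29 against 4.47), and Tbx1 and Tbx4 lay at or below 0.206 CPM per kb in each library.

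In the mouse genome the members form neighbouring pairs, Tbx2 with Tbx4 on chromosome 11 and Tbx3 with Tbx5 on chromosome 5, while Tbx18 and Tbx20 lie apart on chromosome 9 and Tbx1 on chromosome 16. Tbx3 and Tbx5, next to each other among protein-coding genes, had log2 fold changes of opposite sign (-0.60 and 0.57). Med13l, on the far side of Tbx3, rose by 0.89 (edgeR adjusted p = 0.0223), and Rbm19, on the far side of Tbx5, had a value of 0.25 and did not pass. Gp1bb, a platelet glycoprotein gene beside Tbx1, rose by 1.76 (edgeR adjusted p = 0.0113), with 123 and 86 reads in the null libraries against 30. The other protein-coding neighbours outside the family that were tested (Gnb1l, Bcas3, Brip1, Cep162, Nt5e and Herpud2) did not pass.

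The remaining 10 T-box genes were examined as a list. Mga, a broadly made T-box protein that also pairs with Max, had 873 and 808 reads in null tubes and 695 in the wild-type tube and did not pass (log2 fold change 0.24 ± 0.20, SE; edgeR adjusted p = 0.438). The primitive streak and tail bud gene T (Brachyury) fell: neither null library held a read of it, against 19 reads in the wild-type tube, through which it entered the test. Set against 3 counts over the null group, the limit that a count of 0 allows, the level of T was at least 13-fold lower. That limit takes the 19 wild-type reads without their own counting error. The call had an edgeR adjusted p of 0.00922, and DESeq2 gave no adjusted p. The tail and hindgut gene Cdx2 went the same way, with 0 and 1 reads in null tubes and 9 in the wild-type tube, while the posterior Hox genes of the limb list were at or near 0 throughout. Of these 8, Hoxc10, Hoxc9, Hoxa11 and Hoxd11 had no read in either null library and 7, 2, 4 and 6 in the wild type, Hoxd9 had 1 and 0 against 4, Hoxd13 had 0 and 2 against 0, and Hoxa13 and Hoxa9 had none in all 3. None of the 8 or Cdx2 had enough reads to test. The part of posterior tissue in the value of T was not tested. Tbr1 had 6 and 12 reads in the null libraries against 1, and Tbx6 had 13 and 7 against 6, and neither passed. Eomes, Tbx10 and Tbx15 had at most 4 reads in any library, and Tbx19, Tbx21 and Tbx22 had none. Of the 4 genes of this list that could be tested, 0 were called higher, 1 lower and 3 did not pass (11.3% and 10.2% over all genes). Across all 17 T-box genes the 7 members took 89.8% and 90.6% of reads in null tubes, against 89.3% in the wild-type tube.

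Genes that T-box factors switch on in chamber myocardium were mostly higher. Of 19 tested, 12 rose, 2 fell and 5 did not pass. The median log2 fold change was 0.70 (0.014 over all genes), with 0.87 for the first null library and 0.47 for the second. Over all tested genes 11.3% were called higher and 10.2% lower, shares that also stand beside the lists below. Nppa, the atrial natriuretic peptide gene that Tbx5 activates and Tbx2 and Tbx3 repress, had 29524 and 16516 reads in Sox7-null tubes, against 2585 in the wild type. It rose by 3.12 ± 0.30 (SE; edgeR adjusted p = 8.22e-05), far more than any T-box gene that averaged 5 CPM or more, and the null libraries differed from each other, at 2190 and 1198 CPM, both above the 195 CPM of the wild type. The trabecular growth factor gene Bmp10 (2.57 ± 0.31), the heavy chain gene Myh7 (2.20 ± 0.25) and Nppb (1.33 ± 0.16, SE; 2.02 after the length and GC correction) rose too. Gja5, the connexin that depends on Tbx5 in mouse atria and conduction system, did not follow them: it had 632 and 594 reads in null tubes and 775 in the wild-type tube (log2 fold change -0.38 ± 0.20, SE; edgeR adjusted p = 0.196). Smpx, also held down by Tbx2 and Tbx3 in mouse, fell by 0.83, and so did Pln, by 0.93. After the length and GC correction the Smpx call ended (-0.41) and Pln was at -0.50. Of the 10 myocardial markers, 5 of which are also in the chamber list, 5 rose, 0 fell and 5 did not pass, with a median of 0.46. The 5 that rose were those shared with the chamber list, and none of the other 5 passed, with log2 fold changes of -0.31 to 0.47 and Tnni1 and Myl7 below 0. In bulk RNA more cardiomyocytes and more RNA per cardiomyocyte cannot be told apart. Set against myocardial genes within a library, Tbx20 gave 0.220 reads per read of Tnnt2 in both null libraries and 0.279 in the wild type. Per read of Nkx2-5 it gave 1.8 and 1.62 in null tubes and 1.64 in the wild-type tube. Such a ratio depends on the myocardial gene chosen. Tnni1, Myl7 and Myl4 had log2 fold changes of -0.31, -0.26 and 0.036, below the 0.53 of Tbx20. Myh6, Ryr2 and Myh7 lay above it, at 0.64, 1.03 and 2.20. In that fit Tbx20 thus rose relative to the former genes and fell relative to the latter. After the length and GC correction Myh6 (0.17) lay below Tbx20 (0.40), while Ryr2 (0.59) and Myh7 (1.65) stayed above it. The part of cardiomyocyte content in the Tbx20 value was not tested.

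Promoter sequences show where the letters recognised by T-box proteins fall in these genes. The 250 bases before the transcription start (RefSeq, build GRCm38.p6) are given for Tbx20, the member that passed, on the minus strand at chr9:24774304-24774553, and for the chamber targets Nppa (chr4:148000472-148000721, plus strand) and Nppb (chr4:147985650-147985899, plus strand), which rose with it. They are written 5′ to 3′ in lower case, with capitals for GGTGTG or GGTGTGA on either strand.
Tbx20: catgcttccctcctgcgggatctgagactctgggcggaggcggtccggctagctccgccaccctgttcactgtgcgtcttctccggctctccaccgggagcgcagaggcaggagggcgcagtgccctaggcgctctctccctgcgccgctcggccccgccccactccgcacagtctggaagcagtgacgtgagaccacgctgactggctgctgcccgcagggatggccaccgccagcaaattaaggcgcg
Nppa: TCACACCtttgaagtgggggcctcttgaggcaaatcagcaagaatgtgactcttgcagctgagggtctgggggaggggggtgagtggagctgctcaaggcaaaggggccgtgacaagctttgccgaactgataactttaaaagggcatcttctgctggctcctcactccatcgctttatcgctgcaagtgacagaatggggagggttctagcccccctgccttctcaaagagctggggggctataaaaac
Nppb: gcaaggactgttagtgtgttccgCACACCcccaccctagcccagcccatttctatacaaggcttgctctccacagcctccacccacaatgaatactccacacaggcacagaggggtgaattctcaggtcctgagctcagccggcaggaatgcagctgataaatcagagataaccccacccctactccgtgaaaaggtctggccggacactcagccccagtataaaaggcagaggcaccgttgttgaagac

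The longer motif contains the shorter. In windows of 250 bases before and 50 after a start, GGTGTG was present in 19% of 32851 RefSeq promoters and GGTGTGA in 3.98%, counting both strands. Of the chamber targets, 17 genes matched the table with 21 promoters, and 4 of these held GGTGTG (19%), those of Nppa, Nppb, Hey2 and Mycn. Nppa was the one with GGTGTGA, at the first base of the window. Tbx1, Tbx4, Tbx18 and Tbx20 matched with 5 promoters, in which neither motif and no AACAAT, a short Sox motif present in 10.7% of all promoters, was found. No match says only that these letters are not in these windows. Tbx2, Tbx3 and Tbx5 had no entry.

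Partners and co-repressors of T-box factors had no common direction. Among 20 partner genes 2 rose, 1 fell and 17 did not pass (median 0.069), beside 11.3% higher and 10.2% lower over all genes. After the length and GC correction 2 rose and 4 fell, beside 10.6% and 12% of all genes. The muscle coactivator gene Myocd rose by 1.25 ± 0.21, the chamber repressor Hey2, which keeps Tbx2 out of ventricular myocardium, by 0.70 ± 0.23 (edgeR adjusted p = 0.0444, but not with DESeq2, limma-voom or a minimum of 5 CPM, and 0.42 in Sox7-null 2 alone), and Hand2 fell, at -0.91 ± 0.20 (SE). Nkx2-5, which binds DNA beside Tbx5, had 2985 and 3405 reads in null tubes and 2236 in the wild-type tube, a log2 fold change of 0.47 ± 0.18 (SE) that did not pass (edgeR adjusted p = 0.0758). Gata4 had 2778 and 2819 reads against 2075 (0.39 ± 0.18, SE; edgeR adjusted p = 0.130). Both had each null library above the wild type, as 43.1% of all tested genes did (43% had both below). Of 11 co-repressor genes 2 rose, 1 fell and 8 did not pass (median -0.066). Tle4, a Groucho co-repressor, fell by 0.92, and Rere, a nuclear co-repressor gene, rose by 0.73, which became 0.24 after the length and GC correction and no longer passed. After that correction none of the 11 was called higher, and with DESeq2 none passed in either direction.

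**Figure D4:**
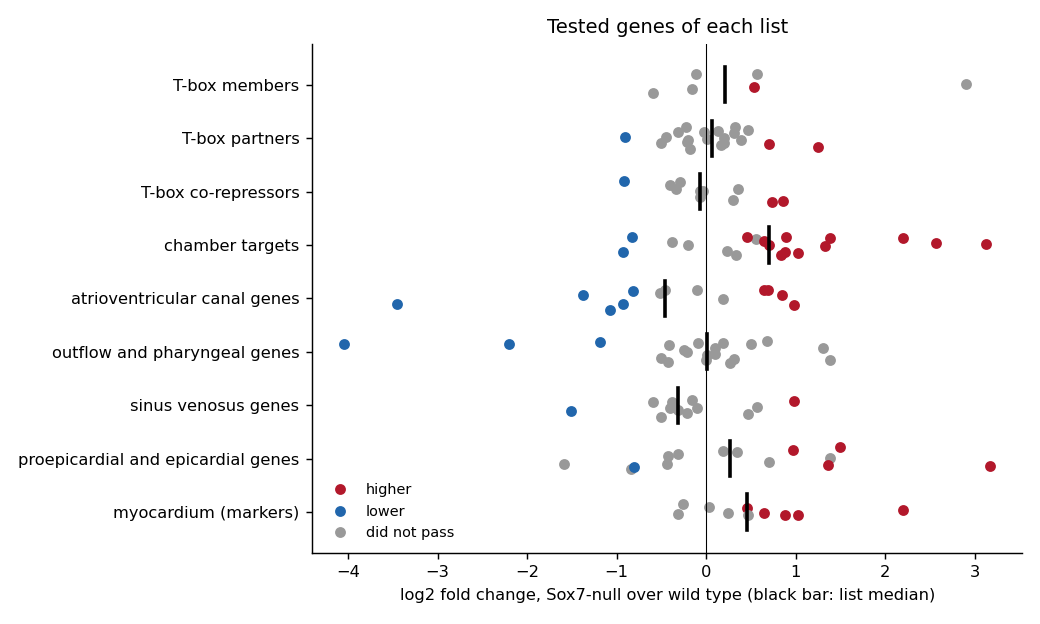
Log2 fold change of Sox7-null over wild type for each tested gene of 9 lists (points, spread vertically at random; red higher and blue lower at an edgeR adjusted p under 0.05, grey did not pass; black bar, list median). The chamber targets lie mostly to the right of 0, with a median of 0.70, while atrioventricular canal genes spread to both sides.

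The atrioventricular canal, where Tbx2 and Tbx3 act downstream of BMP signals, showed changes in both directions. Of 13 genes tested 4 rose, 5 fell and 4 did not pass, with a median of -0.46. The shares over all genes were 11.3% higher and 10.2% lower. Bmp2, the ligand that switches on Tbx2 in the canal, had 669 and 869 reads in null tubes and 1028 in the wild-type tube (log2 fold change -0.46 ± 0.21, SE; edgeR adjusted p = 0.134). Bmp4 had 460 and 437 reads in null tubes and 468 in the wild-type tube (log2 fold change -0.10) and did not pass. Id2, a target of BMP signals that Tbx5 also activates in mouse, fell with 1662 and 2348 reads in the null libraries against 5073 (-1.38 ± 0.20, SE; edgeR adjusted p = 0.000833). Msx1, Twist1 and Rspo3 fell as well, with log2 fold changes of -3.45, -0.93 and -0.82. Msx1 had 3 and 3 reads in null tubes and 33 in the wild-type tube, so it entered the test only through the library where it was high. DESeq2 gave it no adjusted p, a minimum of 5 CPM left it out, and the call of Twist1 ended with DESeq2, which called 2 of the 13 higher and 2 lower. The pacemaker channel gene Hcn4, which Tbx3 favours in the sinus node, rose instead, with 248 and 228 reads in the null libraries against 117 (0.98 ± 0.27, SE; edgeR adjusted p = 0.0206). That call ended with DESeq2 and after the length and GC correction (0.50). Bmpr1a (0.69), Tgfb2 (0.65) and Kcne1 (0.85) rose too. The calls of Bmpr1a and Tgfb2 held with DESeq2 and after that correction, and the call of Kcne1 ended with DESeq2.

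In the outflow and pharyngeal list around Tbx1, 0 of 20 tested genes rose, 3 fell and 17 did not pass (median 0.0059). The shares over all genes were 11.3% higher and 10.2% lower. At an unadjusted p under 0.05 edgeR placed 3 higher (Foxc2, Prdm1 and Aldh1a2) and 3 lower, beside the 18.3% and 17% of all genes given above. DESeq2 called 0 higher and 0 lower, with no adjusted p for Lhx2, and the length and GC correction gave 2 higher and 4 lower. Fgf8 and Fgf10, growth factor genes downstream of Tbx1 in mouse, had 51 and 71 reads against 37 (log2 fold change 0.68) and 121 and 155 against 134 (0.0012). Neither passed, nor did the progenitor gene Isl1 with 90 and 120 reads in null tubes and 118 in the wild-type tube. Lhx2 fell by 4.04, Ripply3, whose protein in mouse binds Tbx1 and blocks its activity, by 2.20 and Foxc1 by 1.19 on the log2 scale. Lhx2 had 5 and 2 reads in null tubes and 58 in the wild-type tube, and likewise entered the test only through the wild type. Ripply3 had 9 and 24 reads in the null libraries against 74 in the wild type.

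Around Tbx18, 13 sinus venosus genes were tested, 3 of them members (Tbx3, Tbx5 and Tbx18). Of these 13, 1 rose (Hcn4), 1 fell and 11 did not pass, with a median of -0.32. The shares over all genes, for this list and the epicardial one, were 11.3% higher and 10.2% lower. The gene that fell was Nr2f1, a nuclear receptor gene of venous and atrial tissue, with 92 and 231 reads in the null libraries against 445 (-1.51 ± 0.36, SE; edgeR adjusted p = 0.0111), and fell by 2.27 in Sox7-null 1 alone and by 1.00 in Sox7-null 2 alone. DESeq2 called none of these 13, and after the length and GC correction 0 were higher and 4 lower. Shox2, which sets the sinus node apart from Nkx2-5-positive myocardium, had 22 and 57 reads in null tubes and 48 in the wild-type tube and did not pass. Of 14 proepicardial and epicardial genes 4 rose, 1 fell and 9 did not pass, with a median of 0.27; the first null library alone gave 0.63 and the second alone -0.28. Those that rose were Krt19, Krt8, Krt18 and Wt1, and after the length and GC correction 6 were higher and 2 lower. Tcf21, made with Tbx18 in the proepicardium, had 221 and 167 reads in null tubes and 254 in the wild-type tube (-0.43 ± 0.26, SE; edgeR adjusted p = 0.265). Aldh1a2, the retinoic acid synthesis gene of the epicardium, had 223 and 70 reads in null tubes and 55 in the wild-type tube and did not pass (edgeR adjusted p = 0.0924). The limb, body wall and allantois list around Tbx4 had 3 genes with enough reads to test, and none of them passed, whereas 1 was lower after that correction.

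Markers of other cell types that the dissected tubes could hold were read beside these values. Endocardial and endothelial markers moved both ways, with 2 of 10 higher (Pecam1 and Tie1), 2 lower (Tek and Npr3) and a summed level of 535 and 526 CPM in null tubes and 522 CPM in the wild-type tube. DESeq2 left 1 higher and 1 lower, without Tie1 and Npr3, and the call of Tie1 also ended after the length and GC correction. Liver bud and yolk sac markers fell in 6 of 8 tested and rose in 1, at 18.1 and 13.7 CPM in null tubes and 56.6 CPM in the wild-type tube. Of those 6, 5 had under 10 reads in each null library and entered the test through the wild type. Of 8 primitive erythroid markers none passed, and their sum was 4522 CPM in Sox7-null 1, 14352 CPM in Sox7-null 2 and 13909 CPM in the wild type. Neural crest markers had 1 of 4 higher (Ets1, not with DESeq2 or after that correction), and pharyngeal endoderm and retina markers had 2 of 3 and 1 of 4 lower. Of the genes called lower, Foxa1 (0 and 3 reads against 26) and Lhx2 entered the test only through the wild type. DESeq2 gave no adjusted p for Foxa1, Epcam or Lhx2 and called 0 lower in either list. Limb mesenchyme and lung bud markers, each with 2 tested genes, and 6 of the 7 tested epicardial markers did not pass, the seventh (Wt1) being higher. Apart from the endothelial, erythroid and epicardial lists, these markers summed to at most 77.1 CPM in any library. Their part in the T-box values was not tested.

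**Figure D5:**
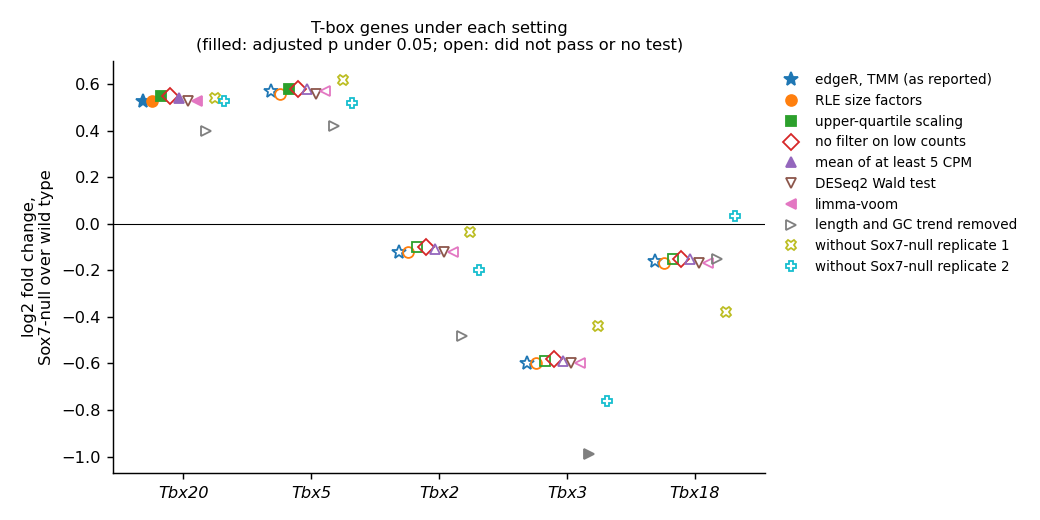
Log2 fold change of Sox7-null over wild type (vertical axis) for the 5 members that averaged 5 CPM or more under the reported edgeR fit and 9 alternatives, the last 2 without a null library and without a test. Tbx20 and Tbx5 lie above 0 and Tbx2 and Tbx3 below 0 in all of them. Filled symbols mark an adjusted p under 0.05, and the length and GC correction gives the lowest values of Tbx20, Tbx2 and Tbx3.

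To name the genes most like a member, centred log2 CPM profiles over the 3 libraries were compared by their root mean square difference, for the tested members with the largest and the smallest log2 fold change. For Tbx3 the closest of 10289 genes averaging 5 CPM or more were Pmm2 (0.00357), Ncbp1 (0.00825) and Hnrnpab (0.00827), and 950 genes lay within 0.1. For Tbx1, whose profile rests on 18 reads, the closest were Nrbp2 (0.213), Kcne3 (0.238) and Snai3 (0.265), and none lay within 0.1. With 3 libraries such likeness is easily reached and is given as a description.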

How the data were processed

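Bulk RNA-seq of 3 mouse heart tube libraries was used, 2 Sox7-null and 1 wild type, with genotypes as labelled. Per the labels' protocols, Trizol-extracted total RNA went into a stranded total RNA kit; that text names retinal organoids, although the labelled tissue is heart tube. The deposited files hold raw read counts, 1 library a file, for 23337 gene symbols; their 5 summary lines were left out. CASAVA, TopHat2, HTSeq and DESeq2 1.10.1 are named, per the submitters' processing notes, along with the human builds hg19 and GRCh37. The gene symbols are mouse ones, which leaves the build unsettled. Annotation and strand setting are not stated.

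Counts were tested with edgeR 4.0.16 (glmQLFit, glmQLFTest) in R 4.3.3 after TMM (factors 1.03, 1.01 and 0.962) and filterByExpr with a minimum count of 10, which kept 13334 genes. Benjamini-Hochberg adjustment ran over all of them. There was 1 residual degree of freedom and 11.8 prior ones, and the lone wild-type sample is taken to vary as the nulls do. The fit was tested on simulated data of 2 libraries against 1. It recovered 56% of genes changed 2-fold and 98% of those changed 4-fold. Smaller changes were not simulated. SE is the log2 fold change divided by the square root of F. No libraries agreed within sampling noise (chi-square per degree of freedom 19.6 to 117). Exon lengths and GC came from GENCODE M21, and 99% of tested genes had both. Alternatives were RLE and upper-quartile scaling, no filter, a mean of at least 5 CPM, DESeq2 1.42.0, limma-voom (limma 3.58.1), removal of a trend on length and GC, and leaving out each null library.

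The members, the 10 gene lists and the 10 marker lists were chosen with earlier results of these data known. Genes named are all members and other T-box genes with a read. Also named are up to 4 genes of each list by smallest p, and a fixed set of T-box targets and partners. Gp1bb, Med13l, the other neighbours, Smpx, Pln, Cdx2 and the Hox genes were named for a description, after their values were seen. The same holds for Bmpr1a, Tgfb2, Kcne1 and individual cell type markers. Some list genes are not reported here.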

Additional observations from a re-analysis of the deposited data

How the results depend on the processing

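Of the T-box members, the number called higher was 1, and became 2 with upper-quartile scaling and 0 with DESeq2, with no filter on low counts and after the length and GC correction. The number called lower was 0, and 1 (Tbx3) after that correction. Over all genes, 1508 higher and 1366 lower became 941 and 721 with DESeq2 and 0 and 0 with no filter, where edgeR still gave 2147 and 1966 at an unadjusted p under 0.05. Tbx20, Tbx5, Tbx2 and Tbx3 kept their direction under all 9 alternatives. Tbx20 had log2 fold changes of 0.40 to 0.55, Tbx5 0.42 to 0.62, Tbx3 -0.99 to -0.44 and Tbx2 -0.48 to -0.033. Fgf10 changed sign with RLE size factors (-0.0060), DESeq2 (-0.0062) and limma-voom (-0.0071), and Bmp4 after the correction (0.0099), all next to 0. The cause of these changes was not tested. Leaving out a null library leaves 1 library a group, so calls could not be recounted, and the wild-type library cannot be left out. No paired analysis was possible because the groups share no replicate numbers. With 1, 0 and 1 reads, a difference in Tbx4 was not detectable at this depth.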
